A study of Mus musculus with 2 samples.

Results

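The Iroquois homeobox genes Irx1 to Irx6 were examined in methylated DNA of mouse testis. The family was selected on the knockout over wildtype ratios of its windows, some of which were extreme. Its 6 genes were then taken by name, and each was read over its RefSeq span plus 1 kb on each side. They hold 129 of the 2537405 windows of 100 bp in the deposited nuclear table, and they are 6 of 21900 protein-coding genes. The study captured sheared testis DNA of C57BL/6 mice with the methyl-CpG binding domain of MBD2 and sequenced it, with 1 wildtype library and 1 library of genotype Kaiso KO. Kaiso is the zinc finger protein encoded by Zbtb33, which binds methylated DNA. The knockout animal was labelled as generation 3 offspring and male sterile, and its description names both Kaiso WT testis and knockout mice, so the genotype label was used. Neither the deleted part of the allele, nor the age of the animals, nor the number of animals behind each library was given in the sources used here.

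The Iroquois genes encode transcription factors of the TALE class of homeodomain proteins, which pattern the early embryo. In mice they lie in paralogous clusters, Irx1, Irx2 and Irx4 on chromosome 13 and Irx3, Irx5 and Irx6 on chromosome 8, with Irx1 and Irx3, Irx2 and Irx5, and Irx4 and Irx6 as the paralogue pairs. Such developmental genes carry broad CpG-rich stretches that are mostly free of methylation in many tissues. The capture used here enriches DNA with methylated CpGs, so a CpG-rich window without reads can be unmethylated or simply uncaptured. A window with few reads is not thereby shown to be methylated.

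With 1 library per genotype there is no replicate check and no test. The genes were chosen with values of this comparison known, so their values are a description. Library sizes were 87710791 reads (wildtype) and 98549116 (knockout). The table lists only windows with an unadjusted p below 0.05, at least 1 CpG and a summed count of at least 10, so a missing window is not shown to be alike in both libraries. Ratios are knockout over wildtype scaled by library reads, and 4 window counts were taken as 1 fragment. Intervals in parentheses after a log2 ratio are 95% Clopper-Pearson intervals that cover counting error only. A gene was called higher or lower at 2-fold with at least 20 fragments over both libraries. Zbtb33 itself had 303 wildtype and 83 knockout counts in 16 windows (log2 -2.04, -2.81 to -1.32), which does not check the label, since the deleted part is unknown and captured DNA is not RNA.

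The promoters are shown first, since the listed windows of the matched genes lay outside them. The RefSeq promoter table (GRCm38.p6, the assembly of mm10) held 3 of the 6 genes, Irx2, Irx3 and Irx4. The 250 bases before each start are shown 5′ to 3′ to let their CpG content be seen, with every CpG in capitals.
Irx2, chr13:72628570-72628819, plus strand: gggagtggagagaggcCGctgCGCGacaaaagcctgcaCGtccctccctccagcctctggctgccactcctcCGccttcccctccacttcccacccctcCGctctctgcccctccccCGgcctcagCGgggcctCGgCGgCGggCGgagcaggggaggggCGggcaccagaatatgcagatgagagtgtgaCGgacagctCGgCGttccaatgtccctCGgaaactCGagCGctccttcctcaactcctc
Irx3, chr8:91801655-91801904, minus strand: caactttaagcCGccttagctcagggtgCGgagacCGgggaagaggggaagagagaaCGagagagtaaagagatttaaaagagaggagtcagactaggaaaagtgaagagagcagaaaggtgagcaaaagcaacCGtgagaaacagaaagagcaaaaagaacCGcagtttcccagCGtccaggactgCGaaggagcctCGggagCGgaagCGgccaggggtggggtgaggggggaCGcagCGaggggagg
Irx4, chr13:73260247-73260496, plus strand: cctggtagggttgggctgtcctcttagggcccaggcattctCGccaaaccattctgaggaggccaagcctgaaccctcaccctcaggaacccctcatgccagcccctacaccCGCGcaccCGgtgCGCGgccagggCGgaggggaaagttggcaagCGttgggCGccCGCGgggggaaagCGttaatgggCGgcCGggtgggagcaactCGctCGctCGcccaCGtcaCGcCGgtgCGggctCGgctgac
These stretches hold 19, 13 and 22 CpGs, against a median of 6 over 32851 promoters, and none of them overlapped a listed window. A listed window was found in 21.1% of all promoters, and in 4.84% of the 10362 promoters with at least 13 CpGs. The motif CGCG, which Kaiso binds when methylated, occurs 1 time in the Irx2 stretch, 3 times in that of Irx4 and 0 times in that of Irx3. It is its own reverse complement, overlaps the CpGs counted above, and is present in 33.8% of all promoters and 85.9% of those with at least 13 CpGs. The unmethylated Kaiso sequence TCCTGCNA, searched on both strands, was in none of the 3 stretches and in 4.03% of all promoters. Downstream of the start, the centre of the nearest listed window lay 1603 bp away in Irx3, 1630 bp in Irx2 and 4153 bp in Irx4.

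Most listed windows of the 6 genes had few or no wildtype counts and more knockout counts. Of the 129 windows 123 were higher in the knockout library, where 56.5% of all listed windows were higher. That background depends on CpG content: it was 37.8% with 1 CpG, 78.0% with 3 to 4 and 98.8% with 5 to 7. Of the 129 windows 38.8% had 5 or more CpGs, against 8.97% of all. A wildtype count was absent from 56 of the 129, against 1.24% of all listed windows, and 98 were at least 4-fold higher, against 9.31%. Both background shares also rise with CpG content, to 11.3% and 48.7% with 11 or more CpGs. Windows with few wildtype counts are listed only where knockout counts are higher, which fixes their direction. The median window had 1 wildtype and 18 knockout counts. Summed over the genes there were 914 wildtype and 3479 knockout counts (log2 1.76, 1.55 to 1.98). At the level of genes 5 of the 6 reached the minimum of fragments, of which 4 were called higher and 0 lower, while 9.74% of 19225 protein-coding genes were called higher and 5.8% lower. Nothing is read from that contrast, since the genes were chosen with it in view. The median log2 ratio of all genes with the minimum was 0.31, and gene ratios are to be read against it.

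**Figure D1:**
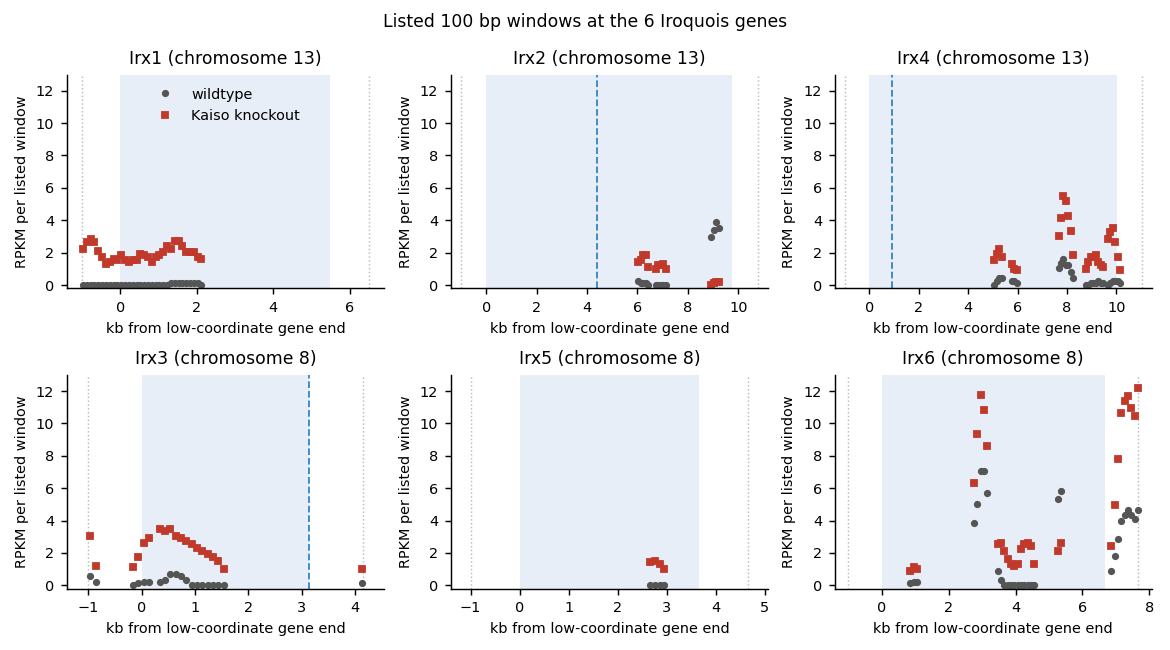
RPKM (read count scaled to window length and library size) of each listed window in the wildtype (circles) and Kaiso knockout library (squares) against distance from the low-coordinate gene end in kb, with the gene span shaded, the 1 kb flanks ended by dotted lines and the RefSeq start dashed where the table gave one. Wildtype values stay at or below 0.114 RPKM across Irx1, and the 4 lower windows of Irx2 stand near the high-coordinate end.

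Irx1, a regulator of lung, kidney and limb development, stood farthest from the wildtype. The gene (Gene ID 16371, chromosome 13 from 71958232 to 71963723) had 32 listed windows, all on its low-coordinate side, from 71957201 to 71960400. Wildtype counts were 0 in 24 of these windows and 1 in the other 8, which amounts to 2 fragments. Knockout counts ran from 13 to 28 with a median of 18. The gap between the libraries is no result, since windows with so few wildtype counts are listed only where knockout counts are higher. The sums of 8 and 615 counts gave a log2 ratio of 6.10 (4.22 to 9.15), the top rank among the 19225 genes with the minimum. That rank can depend on the floor, as genes without a whole wildtype fragment were set to 12 wildtype counts, above the 8 of Irx1. Over 1 kb on each side of both gene ends, where Irx1 had 0 and 378 counts, its ratio at the floor was 4.81. The family was also selected on such ratios. The stretch did not end at the 1 kb edge: the last window inside had 0 wildtype and 22 knockout counts, and the first outside, 32 bp from the edge, had 0 and 20. Followed past that edge, 26 adjacent windows, from 71956901 to 71959500, held no wildtype count and 471 knockout counts. Of the 14457 runs of adjacent listed windows without a wildtype count in the genome, 0 were longer. Beyond that run the direction changed, as 12 of the 15 windows from 1 to 10 kb on the low-coordinate side were lower in the knockout library.

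Irx3, the chromosome 8 paralogue of Irx1 and a gene of limb patterning and cardiac conduction, came next. It lies from 91798511 to 91801654 (Gene ID 16373) and is read from the minus strand. Its 20 windows had 0 to 6 wildtype counts with a median of 1.5, and 10 to 34 knockout counts with a median of 24. All 20 were higher in the knockout library, and the ranges of the libraries did not overlap. The listing filter largely fixes both, as it keeps windows with so few wildtype counts only where knockout counts are higher. The sums of 38 and 452 counts gave a log2 ratio of 3.40 (2.45 to 4.53). The main stretch, 17 windows from 91798301 to 91800100, covers the part of the gene away from its start, and 7 adjacent windows from 91799401 to 91800100 held 0 wildtype and 130 knockout counts. On the side of the start the listed windows began again just before the 1 kb edge and ran on outside it. In 28 windows from 91802601 to 91805600 there were 15 wildtype and 696 knockout counts (log2 5.37, 3.95 to 7.34). A further 14 windows from 91806101 to 91807500 had 0 and 272. With wildtype set to a floor of 3 fragments over the stretch, that was 20.2-fold higher (interval from a log2 of 3.997). Irx3os, an annotated lncRNA gene next to Irx3, was not read, since only protein-coding genes were taken. Reads of 1 strand or the other are not told apart in such DNA.

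Irx4, known for its role in the heart ventricle, had all of its 28 windows higher in the knockout library. It spans 73259589 to 73269622 on chromosome 13 (Gene ID 50916). Wildtype counts ran from 0 to 14 (median 2) and knockout counts from 9 to 54 (median 17.5), so here the ranges overlapped. Where wildtype counts were few the listing filter fixed the direction, since such windows are listed only where knockout counts are higher. The sums were 98 and 634, a log2 ratio of 2.53 (1.91 to 3.20). The gene fell into 3 stretches that differ in wildtype level. The first, 7 windows from 73264601 to 73265600, had 15 and 105 counts (2.64, 1.08 to 4.70). The middle one, 7 windows from 73267201 to 73267900, carried the most capture in both libraries, with 68 and 269 counts (1.82, 1.03 to 2.68) and a peak window of 14 and 54 counts with 9 CpGs. The last, 14 windows at the far end from 73268301 to 73269800, had 15 and 260 (3.95, 2.48 to 5.95). Counting intervals of the middle and the last stretch overlap, and the difference between them was not tested.

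Irx6, the chromosome 8 paralogue of Irx4 and a gene of retinal bipolar cells, had the most wildtype counts of the 6 genes. It spans 92674289 to 92680956 (Gene ID 64379). Its 31 windows had 0 to 62 wildtype counts (median 8) and 9 to 120 knockout counts (median 26), and these ranges overlap widely. The sums of 644 and 1588 gave a log2 ratio of 1.13 (0.87 to 1.41), close to the threshold for a call. Inside the gene, 10 adjacent windows from 92677901 to 92678900 held 0 wildtype and 185 knockout counts. These 10 windows could be listed only in that direction. They follow a peak of 5 windows, from 92677001 to 92677500, with 252 and 462 counts, so windows with and without wildtype capture lay within 2 kb of each other. A pair of windows from 92679501 to 92679700 went the other way, with 98 wildtype and 47 knockout counts (-1.23, -2.37 to -0.17). In the 1 kb flank past the high-coordinate end 9 windows had 278 and 813 counts (1.38, 0.98 to 1.79). They lie outside the gene span and hold 813 of the 1588 knockout counts given above for Irx6. This stretch ran past the 1 kb edge, where the window inside had 41 and 120 counts and the next one outside 44 and 126.

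Irx2 and its paralogue Irx5 were thinly listed. Irx2 spans 72624430 to 72634196 on chromosome 13 (Gene ID 16372) and had 14 windows with 126 wildtype and 138 knockout counts (log2 -0.037, -0.78 to 0.71). That value near 0 is the sum of parts with opposite directions. In 10 windows from 72630401 to 72631600 there were 0 to 2 wildtype and 10 to 18 knockout counts, in all 5 and 133 (4.57, 2.20 to 9.01). In 4 windows from 72633301 to 72633700, close to the end of the gene, wildtype counts were 26, 30, 34 and 31 and knockout counts 0, 1, 2 and 2 (-4.77, -9.21 to -2.39). The listing filter fixes both directions, as windows with few counts in 1 library are kept only where the other is higher. The higher windows had a median of 7.5 CpGs and the lower ones 1 or 2 CpGs each. Genome-wide the knockout value was the larger in 37.8% of windows with 1 CpG and in 98.8% of those with 5 to 7 CpGs. Irx5, a gene of the cardiac repolarization gradient and the retina, spans 92357796 to 92361456 on chromosome 8 (Gene ID 54352). Its 4 adjacent windows, from 92360401 to 92360800, had no wildtype count and 14, 15, 13 and 10 knockout counts. Windows without a wildtype count are listed only where knockout counts are higher. Those 13 knockout fragments missed the minimum for a call. With wildtype set to the floor, the gene was 3.86-fold higher (interval from a log2 of 1.44). As at Irx3, more lay outside the 1 kb edge: 14 windows from 92365701 to 92367100 held 0 wildtype and 201 knockout counts. With wildtype at that floor they were 14.9-fold higher (interval from a log2 of 3.55).

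**Figure D2:**
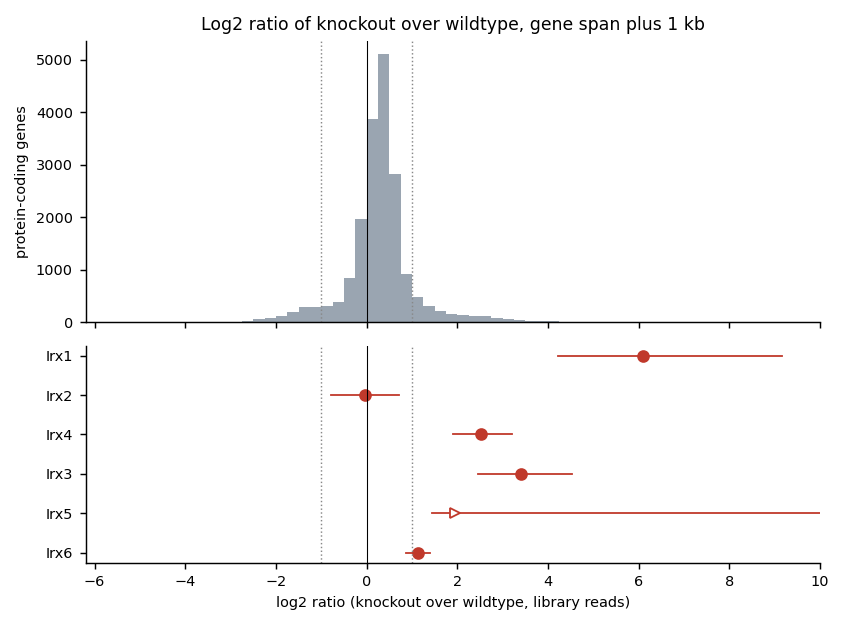
Number of protein-coding genes with the minimum of fragments by log2 ratio of knockout over wildtype (top) and the 6 Iroquois genes with 95% counting intervals (bottom), with dotted lines at 2-fold. Irx1 at 6.10 lies farthest to the right and Irx2 lies at -0.037. The open triangle of Irx5 is a value with wildtype set to the floor, and its interval has no upper end.

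In order of the gene ratios, Irx1 (6.10) was followed by Irx3 (3.40), Irx4 (2.53), Irx6 (1.13) and Irx2 (-0.037). Irx5 is known only from a value at the floor and was not placed in this order. The counting intervals of Irx1 and Irx3 overlap, as do those of Irx3 and Irx4, whereas those of Irx4, Irx6 and Irx2 are separate from one another. Summed by cluster, the chromosome 13 genes had 232 wildtype and 1387 knockout counts (2.41, 2.01 to 2.84) and the chromosome 8 genes 682 and 2092 (1.45, 1.20 to 1.71). Irx6 alone gave 644 of the 682 wildtype counts on chromosome 8, so that sum is mostly a value of Irx6. On chromosome 13 Irx2 gave 126 of the 232 wildtype counts, 121 of them in its 4 lower windows, so that sum mixes unlike parts.

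In windows with 2 or more CpGs the median level in the knockout library was below that of all listed windows of like CpG content. RPKM allows levels of windows to be compared, as all are 100 bp long. In windows with 5 to 7 CpGs the Iroquois genes had a median of 0 RPKM in wildtype and 1.73 in the knockout, while all listed windows of that CpG content had medians of 7.98 and 12.2. With 8 to 10 CpGs the medians were 0.114 and 1.93, against 8.32 and 13.1. With 1 CpG the knockout medians lay close together, at 1.62 for 17 Iroquois windows and 1.73 for all, and 7 of the 17 were above the median of all, while in wildtype they were 0.684 and 3.31. The knockout window thus stood above the median of its own CpG count in 18 of 129 cases, of which 12 belonged to Irx6, 5 to Irx4 and 1 to Irx3. In wildtype 5 of 129 did. The relative methylation score that the authors deposited, whose scale is not stated, was low as well: with 5 to 7 CpGs the knockout median was 0.019 for the Iroquois windows and 0.119 for all. All 50 Iroquois windows with 5 or more CpGs were higher in the knockout library, which is near the background of 98.8% for all windows with 5 to 7 CpGs, 99.5% with 8 to 10 and 99.04% with 11 or more.

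**Figure D3:**
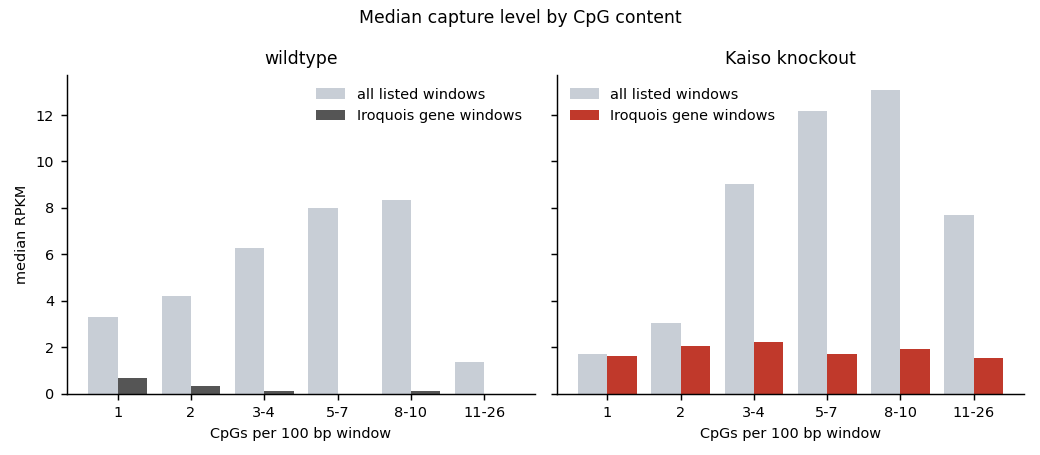
Median RPKM of all listed windows (light bars) and of the Iroquois gene windows (dark bars) by the number of CpGs in the window, in wildtype (left) and Kaiso knockout (right). With 5 or more CpGs the Iroquois medians stay at or below 0.114 RPKM in wildtype and between 1.52 and 1.93 in the knockout, below those of all listed windows.

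The pattern did not extend over the clusters as a whole. Within 10 kb but outside the 1 kb flanks, the surroundings of the genes were looked at after the gene windows had been seen. On chromosome 8 this zone had 93 windows, of which 72 (77.4%) were higher and 47 (50.5%) had no wildtype count, most of them beside Irx3 (31) and Irx5 (14). On chromosome 13 it had 58 windows, with 28 (48.3%) higher and 4 (6.90%) without a wildtype count. Farther than 10 kb from the genes, 39.4% of 1167 windows on chromosome 13 and 49.6% of 1309 on chromosome 8 were higher, and 0.428% and 1.83% had no wildtype count. The log2 ratios of these far windows were 0.0084 and 0.11, and their median wildtype levels 3.88 and 4.33 RPKM, against 0.114 and 0.228 in the genes. CpG content differed as well, with medians of 2 and 2 CpGs in the far windows and 4 and 3 in the genes. Of all windows between the genes 7.23% and 6.01% had 5 or more CpGs, against 48.6% and 25.5% in the genes. The part of CpG content in the lower share of higher windows was not tested.

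**Figure D4:**
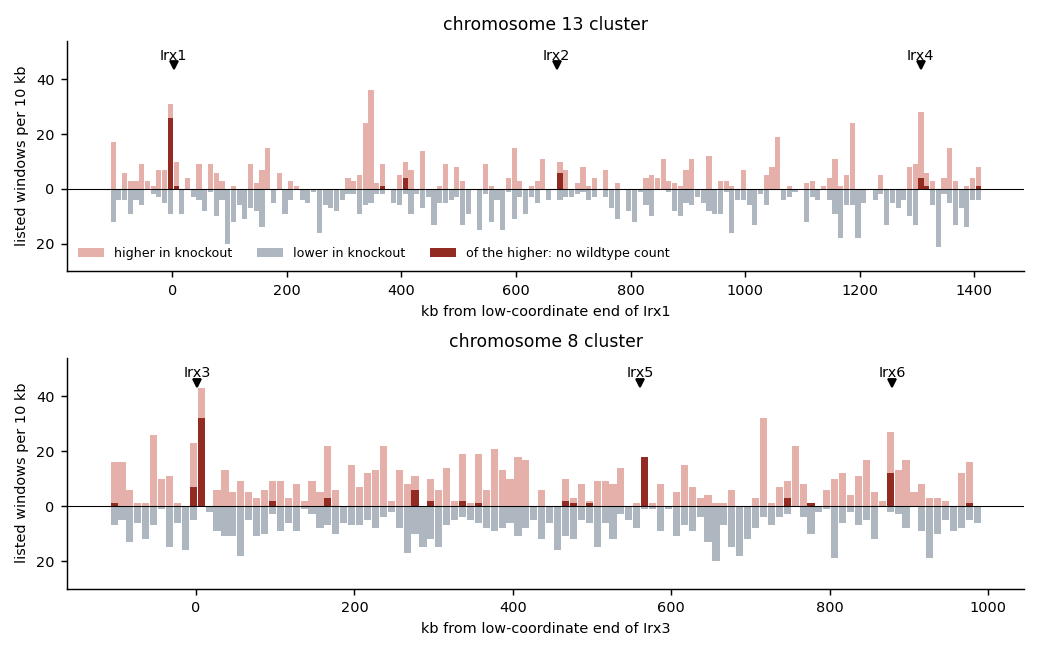
Listed windows per 10 kb that were higher (up) or lower (down) in the knockout library along both clusters, with the higher windows without a wildtype count in dark red, against distance in kb from the low-coordinate end of the first gene. The tallest dark bars, with 26, 32, 18 and 12 windows, stand at or next to Irx1, Irx3, Irx5 and Irx6.

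Of 8 protein-coding neighbours 7 were called neither higher nor lower over gene span plus 1 kb. No protein-coding gene lies between the members of either cluster. Fto, 130 kb from Irx3, had a log2 ratio of 0.27 (0.24 to 0.31). Rpgrip1l, a cilium gene 485 kb away, had -0.015 (-0.14 to 0.11). On the other side of that cluster the matrix protease gene Mmp2, at 146 kb, had 0.13 (-0.041 to 0.31) and Lpcat2, at 174 kb, -0.016 (-0.13 to 0.096). Around the chromosome 13 cluster the nearest genes on the low-coordinate side were far off, Adamts16 (0.092) at 1116 kb and Ice1 (0.25) at 1320 kb. On the other side Ndufs6, a subunit gene of mitochondrial complex I 50 kb away, had -0.20 (-0.45 to 0.055). Mrpl36, a mitochondrial ribosomal protein gene with 3 windows at 59 kb, was the only neighbour called, at -1.09 (-2.06 to -0.17). Other settings moved some of these values: over gene ends Rpgrip1l was -2.14 and Mmp2 -1.73, and with an authors' p below 0.001 Ndufs6 was -2.55.

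Other TALE homeobox genes, the class to which the Iroquois genes belong, had more wildtype counts per listed window. Of 12 genes of the Meis, Pbx, Pknox, Tgif and Mkx families, all with the minimum, 0 were called higher and 1 lower, and their median was 0.19. Over gene ends 7 of the 12 had the minimum, of which 1 was higher and 3 lower, with a median of -0.97 and a range from -1.56 to 4.94. Pbx2 (0.49, 0.29 to 0.68) and Meis3 (0.35, -0.052 to 0.76) were at the upper end, and Tgif1 (-1.01, -1.38 to -0.65) and Pknox2 (-0.29, -0.38 to -0.20) at the lower. The median TALE gene had 39.6 wildtype counts per window, against 2.70 for the Iroquois genes. Among 36 of 39 Hox genes with the minimum 33 were higher and 1 lower (median 2.31), and among 6 clustered Fox genes 3 were higher and 1 lower (median 1.10). The median of the 5 Iroquois genes was 2.53. Differences between these lists were not tested. By mean RPKM of listed windows in the 2 libraries, genes close to members included Hoxb8 and LOC102637806 for Irx1, Hes7 and Wnt10b for Irx3, Crabp2 and Dmrtc1a for Irx4, and Hs3st1 and Tmem30c for Irx6. For Irx2 they were Gm15080 and AA467197, and for Irx5 Lor and Micos13, which rest on 2 and 4 windows. Likeness here is distance on log2 RPKM over 2 libraries, and says nothing of control.

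**Figure D5:**
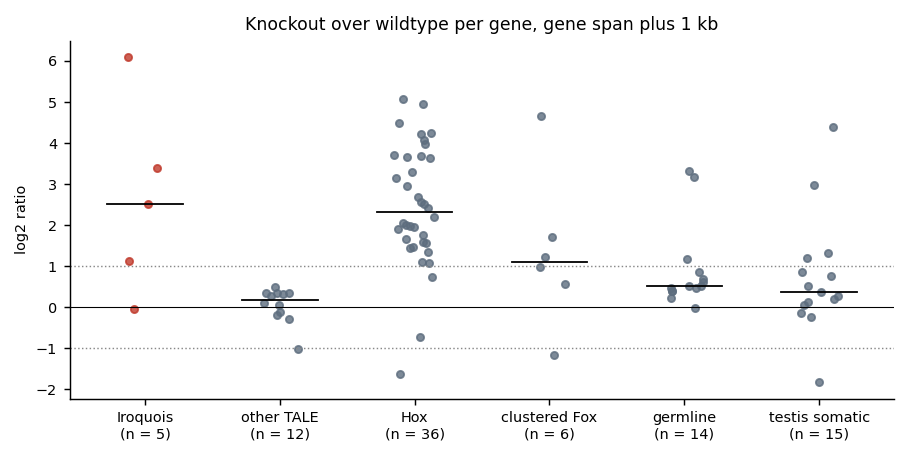
Log2 ratio of knockout over wildtype per gene over the gene span plus 1 kb for genes with the minimum of fragments, by list, with a bar at the median and dotted lines at 2-fold. The 5 Iroquois genes range from -0.037 to 6.10 and the 12 other TALE genes from -1.01 to 0.49.

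Genes that are methylated in somatic cells and unmethylated in germ cells were mostly called higher at their ends and mostly not called over their spans. Over 1 kb on each side of both gene ends, where 22.8% of 14846 protein-coding genes were called higher and 14% lower, 13 of 14 such germline genes were higher and 0 lower, with summed levels of 272 RPKM in wildtype and 1304 in the knockout. None of the 14 was at 0 in wildtype. Over gene span plus 1 kb 3 of 14 were higher and 11 neither, with sums of 2207 and 3242 RPKM, and with Sycp3 (3.33, 2.76 to 3.95) and Dazl (3.18, 2.59 to 3.84) at the top and Smc1b (0.23) and Ddx4 (-0.029) at the bottom. Of 15 genes of Sertoli, Leydig, peritubular and macrophage cells 4 were higher and 1 lower over that region, from Insl3 (4.40, 3.17 to 6.00) and Amh (2.99) to Gata4 (-0.24) and Hsd3b6 (-1.83), with sums of 2269 RPKM in wildtype and 2860 in the knockout. Over gene ends 13 of them reached the minimum, 5 called higher and 1 lower, and the sums were 267 and 457 RPKM. In DNA of a whole testis, a different share of cell types and a different methylation within cells cannot be told apart, and the part of either in the Iroquois values was not tested.

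The size of the member ratios depended on the scaling, and for Irx6 the call did too. Irx1, Irx3 and Irx4 stayed above 2-fold under each scaling tried, with Irx1 between 5.35 and 6.23, Irx3 between 2.74 and 3.53 and Irx4 at 1.86 or more. Irx6 fell below 2-fold with autosomal counts (0.86), when the median log2 ratio of CpG-dense windows (at least 5 CpGs) was set to 0 (0.47), within CpG classes (0.90) and without the flanks (0.91). Irx2 was -4.77, and called lower, when only windows with a summed count of at least 20 were kept or only its ends were read, since its higher windows each hold fewer counts or lie away from those ends. Within CpG classes it was 0.94, and not called. The share of higher among all called genes was 62.7% with library reads and 48.0%, 28.9% and 80.6% under the first 3 of these settings.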

How the data were processed

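Bowtie2 2.2.6, edgeR and the mm10 build are named in the submitters' processing notes. The deposited count of a 100 bp window is in whole reads, and the deposited RPKM is that count scaled by the authors to window length and library reads, which gave the library sizes. The authors' relative methylation score, their log2 fold change (used for 1 alternative scaling) and their p-value (used for 1 stricter filter) are per window, per the file headers. The number of CpGs per window was deposited as well. Another 10 per-sample columns were not used.

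Windows overlapping each gene span (RefSeq, GRCm38.p6) plus 1 kb were summed. Sums were divided by 4 to approximate fragments: of 20 isolated runs of single wildtype counts between windows at 0, 19 covered 4 windows and 1 covered 8. A library without a whole fragment was set to a floor of 3 fragments per region (12 window counts). Reads are not unique molecules, so intervals cover counting error only. The computation of calls was run on gene totals split at random with known folds. That simulation holds neither variation between animals nor the listing filter, so it does not bear on whether a call would repeat. The gene lists and the members were chosen with earlier results of these data known. Named genes were all members, the 2 highest and lowest of each list, the 2 nearest genes on each side of the clusters and the 2 genes nearest to each member in mean log2 RPKM (pseudocount 0.1). Alternatives were other scalings, minimums, folds and regions. Python 3.11.15, pandas 2.3.3 and scipy 1.17.1 were used.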

Additional observations from a re-analysis of the deposited data

How the results depend on the processing

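Under 10 alternatives the number of Iroquois genes called higher was 3 or 4. Both cluster ratios stayed above 0 under the 8 alternatives that bear on them. The chromosome 13 ratio of 2.41 was 1.75 after centring on CpG-dense windows (at least 5 CpGs), 1.72 with windows of a summed count of at least 20, and 1.99 over 1 kb on each side of both gene ends. The chromosome 8 ratio of 1.45 was 1.18 with autosomal counts, 0.79 after that centring, 1.84 with an authors' p below 0.001, and 1.81 over gene ends. The cause of these moves was not tested beyond what each setting removes or rescales. The median of all genes was 0.034, -0.36, 0.64 and 0.498 under those last 4 settings, against 0.31. The count of all genes called higher went from 1872 to 1358, 930, 3940 and 3389 under them, and to 705 at 4-fold. That of genes called lower went from 1116 to 1473, 2293, 1232 and 2085, to 519 within CpG classes, to 688 with at least 50 fragments and to 212 at 4-fold. No paired analysis was possible because each genotype has 1 library. Few wildtype fragments, such as the 2 of Irx1, leave the upper bound of a ratio loosely set (4.22 to 9.15 for Irx1).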
